A study of Mus musculus with 12 samples.

Results

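The genes described here are the transcriptional activators of the circadian clock and the nuclear receptors that control them: Arntl, Clock, Npas2, Nr1d1, Nr1d2 and Rora. They were taken by exact gene symbol, each through the probe set that named it alone, and all 6 were found among the 22180 genes measured. Expression was profiled in aortic vessel tissue of 12 female mice of the outbred CD-1 stock, on 1 Affymetrix array per mouse. One group of 6 mice received CM-695, a compound that inhibits both histone deacetylase 6 and phosphodiesterase 9, injected intraperitoneally (2 injections of 80 mg/kg, at 2 h and at 1 h before sacrifice). The other group of 6 mice received saline, which the series design records as a single injection. All animals were perfused with buffered saline before the aorta was frozen, and each array held the RNA of 1 mouse. The sources used here give neither the ages nor the clock time of collection.

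In the mammalian clock, BMAL1 (the product of Arntl) pairs with CLOCK or with its paralogue NPAS2, and the pair binds E-box sequences to switch on genes of the Period and Cryptochrome repressors, of output factors, and of the REV-ERB receptors themselves. REV-ERB alpha and beta (Nr1d1 and Nr1d2) and the ROR receptors (Rora among them) compete for another element, the RORE, at which REV-ERBs repress and RORs activate. Arntl is the best known target of that element, so the receptors close a second loop around the activators. Clocks of this kind run in the vessel wall, in smooth muscle and endothelium alike, and transcripts of many clock genes swing with the time of day.

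The values were log2 expression from RMA, comparable between mice for 1 gene but not between genes. Array medians lay between 4.69 and 4.74 and the arrays correlated with each other at 0.957 to 0.977 across probe sets. Smooth muscle markers had high values in all mice, with Acta2 (smooth muscle actin) between 11.98 and 13.6 and Myh11 (smooth muscle myosin) between 10.1 and 12.2, as the tissue label has it. Fat markers also had high values, with the brown fat genes Ucp1 (uncoupling protein) between 11.85 and 13.2 and Cidea between 11.1 and 12.3. The heart muscle actin gene Actc1 ran from 9.61 to 11.5 in vehicle and from 7.38 to 10.6 in CM-695 mice. The samples held fat and heart muscle transcripts beside those of the vessel. The precision of every comparison is limited by the 6 mice per group, and in tissue RNA fewer cells of a type and less RNA per cell cannot be told apart.

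The activators Arntl and Npas2 rose, Nr1d2 fell, and Clock, Nr1d1 and Rora did not pass the test. The test was limma across all 41345 probe sets with Benjamini-Hochberg adjustment, and a gene passed at an adjusted p under 0.05. Of the 6 genes, 2 were called higher, against 0.0225% of all genes, and 1 lower, against 0.144%. In 3 of the 6 every CM-695 mouse lay above every vehicle mouse (0.442% of all genes), in 1 every CM-695 mouse lay below (0.636%), and in 2 the groups overlapped. The 6 genes were chosen with earlier results of these data known, so these counts describe them and test nothing. CM-695, the number of injections and any difference in collection time cannot be told apart in this design.

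**Figure D1:**
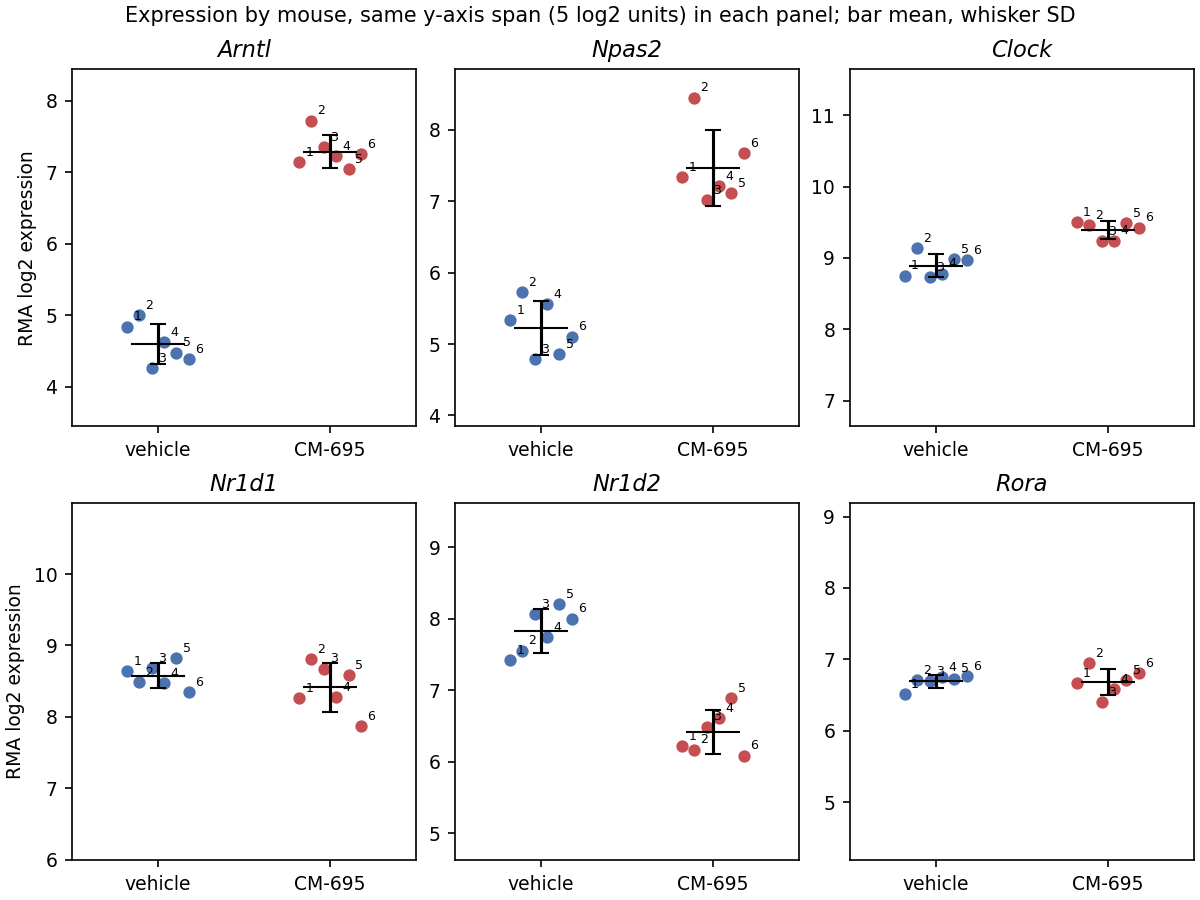
RMA log2 expression of the 6 genes in each mouse (points, numbered by mouse), with the group mean and SD, for 6 vehicle and 6 CM-695 mice; the y axes span the same log2 range. Arntl and Npas2 are separated by wide gaps, Clock and Nr1d2 by narrower ones, and the groups overlap for Nr1d1 and Rora.

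Arntl, whose product pairs with both CLOCK and NPAS2, gave the smallest p of all genes. In vehicle mice it ran from 4.25 to 4.999 with a median of 4.55, and in CM-695 mice from 7.05 to 7.72 with a median of 7.24. No value lay between the groups over a gap of 2.05 log2 units, while the SD was 0.28 in vehicle and 0.24 in CM-695 mice. The difference was 2.69 (SE 0.15, 95% confidence interval 2.38 to 3.01, adjusted p = 2.80e-06), or 6.48-fold, and only 1 gene differed more in size. The vehicle mean of 4.59 lay below the median of all values, 4.72, so this fold starts from a low signal. Vehicle mouse 2 and CM-695 mouse 2 were the highest of their groups.

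The promoter of Arntl is shown because the receptors in this set act on it. RefSeq promoter windows of build GRCm38.p6, from 250 bases before to 50 bases after each annotated start, were found for 6 of the 6 genes, 9 windows in all. They were searched on both strands for the RORE consensus, for its half-site AGGTCA (which an RORE match can contain), for the E-box CACGTG, its variant CACGTT and the D-box TTATGNAA. An exact RORE is rare, in 0.384% of all 32851 windows, and Arntl was the only one of the 6 genes with such a match. It begins 27 bases after the second annotated start. A copy with 1 mismatch begins 10 bases before the same start, a class of match that 8.37% of windows hold. Both lie on the plus strand, at chr7:113207528-113207556 and chr7:113207492-113207520, and are printed with the matched letters in capitals.
Arntl exact RORE: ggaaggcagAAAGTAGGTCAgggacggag
Arntl RORE with 1 mismatch: attggtcggAAAGTAGGTTAgtggtgcga
The matches describe the sequence and say nothing about binding in these mice.

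Npas2, which can stand in for CLOCK as the partner of BMAL1, rose as well. It ran from 4.79 to 5.73 in vehicle mice (median 5.22) and from 7.01 to 8.45 in CM-695 mice (median 7.27). The difference was 2.24 (SE 0.24, 95% confidence interval 1.72 to 2.75, adjusted p = 0.00139), or 4.72-fold, the fourth largest of all genes in size. CM-695 mouse 2 stood highest, as it did for Arntl, and without it the difference was 2.04 (adjusted p = 0.00056). With the mean of the heart muscle markers as a covariate the call ended (2.26, adjusted p = 0.0501). The single promoter window of Npas2 held none of the 5 motifs, which says only that those letters are not in that window.

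Clock, the usual partner of BMAL1, was not called. Vehicle mice ran from 8.73 to 9.14 (median 8.87) and CM-695 mice from 9.23 to 9.51 (median 9.44). All 6 treated mice lay above the vehicle mice, by a gap of 0.096 log2 units only. The difference of 0.50 (SE 0.097, 95% confidence interval 0.29 to 0.71), or 1.42-fold, did not pass over all probe sets (adjusted p = 0.0739). It passed when dim probe sets were left out, which reduced the number of tests to 20828 (adjusted p = 0.0315). The exact two-sided permutation test over the 924 assignments of 12 mice gave p = 0.00216, the smallest it can give, and an adjusted p = 0.237 over all probe sets. Of the 3 Clock windows, 1 held the half-site AGGTCA, which 16.3% of all windows hold.

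**Figure D2:**
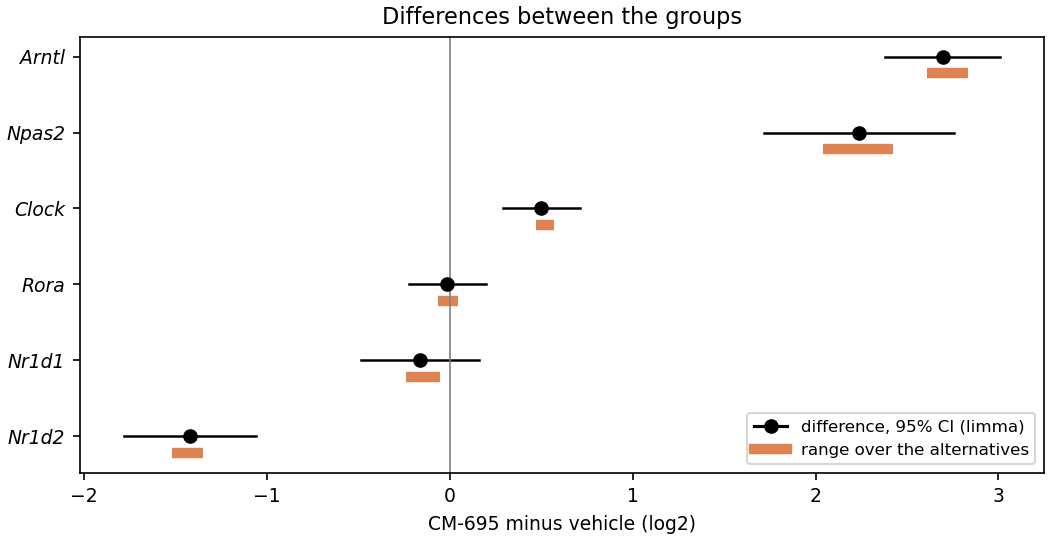
CM-695 minus vehicle difference in log2 expression for the 6 genes (points) with the 95% confidence interval from limma, and under each the range of the difference over the alternative analyses. The intervals of Nr1d1 and Rora cross 0, and the range over alternatives crosses 0 for Rora alone.

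Of the REV-ERB genes, Nr1d2 fell and Nr1d1 was not called; the difference between their responses was not tested. Nr1d2, which encodes REV-ERB beta, ran from 7.42 to 8.20 in vehicle mice (median 7.88) and from 6.08 to 6.89 in CM-695 mice (median 6.36). All treated mice lay below all vehicle mice, with a gap of 0.53. The difference was -1.42 (SE 0.17, 95% confidence interval -1.78 to -1.06, adjusted p = 0.00282), so the vehicle level was 2.68-fold the CM-695 level. With the mean of the heart muscle markers as a covariate the call ended (-1.38, adjusted p = 0.0968).

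Nr1d1, which encodes REV-ERB alpha, ran from 8.35 to 8.82 in vehicle mice (median 8.56) and from 7.87 to 8.80 in CM-695 mice (median 8.43). The groups overlapped, with 3 of 6 treated mice below the vehicle range and none above it. The difference was -0.16 (SE 0.15, adjusted p = 0.787), and its 95% confidence interval of -0.49 to 0.16 corresponds to 0.714 to 1.12 times the vehicle level. The SD was 0.34 in CM-695 mice and 0.17 in vehicle mice. CM-695 mouse 6 was lowest and mouse 2 highest, and the difference was -0.05 without mouse 6 and -0.24 without mouse 2. The Nr1d1 locus overlaps Thra, the thyroid hormone receptor alpha gene on the opposite strand, whose own probe set differed by 0.27 (SE 0.12, adjusted p = 0.535).

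Set against each other within each mouse, the log2 ratio of Nr1d1 to Nr1d2, taken relative to its vehicle mean, ran from -0.40 to 0.48 in vehicle mice (median -0.07) and from 0.93 to 1.89 in CM-695 mice (median 1.17). It was higher in all 6 treated mice than in any vehicle mouse, by 1.26 on average (SE 0.19) or 2.395-fold.

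The 250 bases before the start of each REV-ERB gene are printed because the pair share a family and a role, and 1 of them was called. In Nr1d1 (chr11:98775378-98775627, minus strand, 54.8% G and C) the capitals mark AACGTG, which is the E-box variant CACGTT on the other strand, and the first 10 bases of an RORE match with 1 mismatch. CACGTT occurs in 4.68% of all windows. In Nr1d2 (chr14:18239107-18239356, minus strand, 63.6% G and C) the capitals mark the half-site AGGTCA. Neither window held CACGTG, which 7.15% of windows hold, or TTATGNAA, which 3.38% hold.
Nr1d1: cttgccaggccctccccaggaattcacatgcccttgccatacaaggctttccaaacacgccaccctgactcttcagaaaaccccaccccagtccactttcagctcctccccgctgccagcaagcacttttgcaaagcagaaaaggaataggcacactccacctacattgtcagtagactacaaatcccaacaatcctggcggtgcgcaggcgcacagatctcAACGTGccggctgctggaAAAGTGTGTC
Nr1d2: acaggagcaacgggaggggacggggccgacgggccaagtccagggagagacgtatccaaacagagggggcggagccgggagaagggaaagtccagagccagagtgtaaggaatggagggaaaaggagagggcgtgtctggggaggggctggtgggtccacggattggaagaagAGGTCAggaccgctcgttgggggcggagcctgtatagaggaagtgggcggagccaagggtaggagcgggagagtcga

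Rora, the activating receptor at the RORE, did not differ detectably between the groups. It ran from 6.52 to 6.77 in vehicle mice (median 6.72) and from 6.40 to 6.95 in CM-695 mice (median 6.69). The difference was -0.01 (SE 0.099, adjusted p = 0.981), and the 95% confidence interval of -0.22 to 0.20 bounds a change to between 0.856 and 1.15 times the vehicle level. The SD was 0.19 in CM-695 and 0.092 in vehicle mice. With the mean of the smooth muscle markers as a covariate, an alternative chosen after seeing the data, the difference was 0.03 (SE 0.086, adjusted p = 0.943). The paralogues of this set measured on the array, Arntl2 (a second BMAL gene) and Rorb, differed by -0.04 (SE 0.11) and -0.05 (SE 0.098), with 0 of 2 called.

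Ratios of the activators to the REV-ERBs were higher after CM-695. Each ratio is given as a log2 value relative to its vehicle mean. It is a description without a test, since it joins genes described above. Arntl to Nr1d2 ran from -0.57 to 0.68 in vehicle mice (median -0.14) and from 3.40 to 4.79 in CM-695 mice (median 4.13), a mean shift of 4.12 (SE 0.30) or 17.4-fold. Arntl to Nr1d1 ran from -0.45 to 0.50 (median 0.07) and from 2.44 to 3.36 (median 2.88), a shift of 2.86 (SE 0.19) or 7.25-fold. For both ratios all 6 treated mice lay above the vehicle range. Both folds start from the low Arntl signal in vehicle mice.

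Npas2 to Nr1d2 shifted by 3.66 (SE 0.41) or 12.6-fold, with CM-695 mice from 2.83 to 4.88 (median 3.46) and vehicle mice from -0.74 to 0.78 (median 0.06). Npas2 to Nr1d1 shifted by 2.3996 (SE 0.31) or 5.28-fold, again with 6 of 6 treated mice above the vehicle range. Clock to Nr1d2 shifted by 1.92 (SE 0.20) or 3.79-fold with 6 of 6 above. Clock to Nr1d1 was the exception: its shift was 0.66 (SE 0.19) or 1.58-fold, and CM-695 mouse 3 at 0.24 lay inside the vehicle range, which ended at 0.34.

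**Figure D3:**
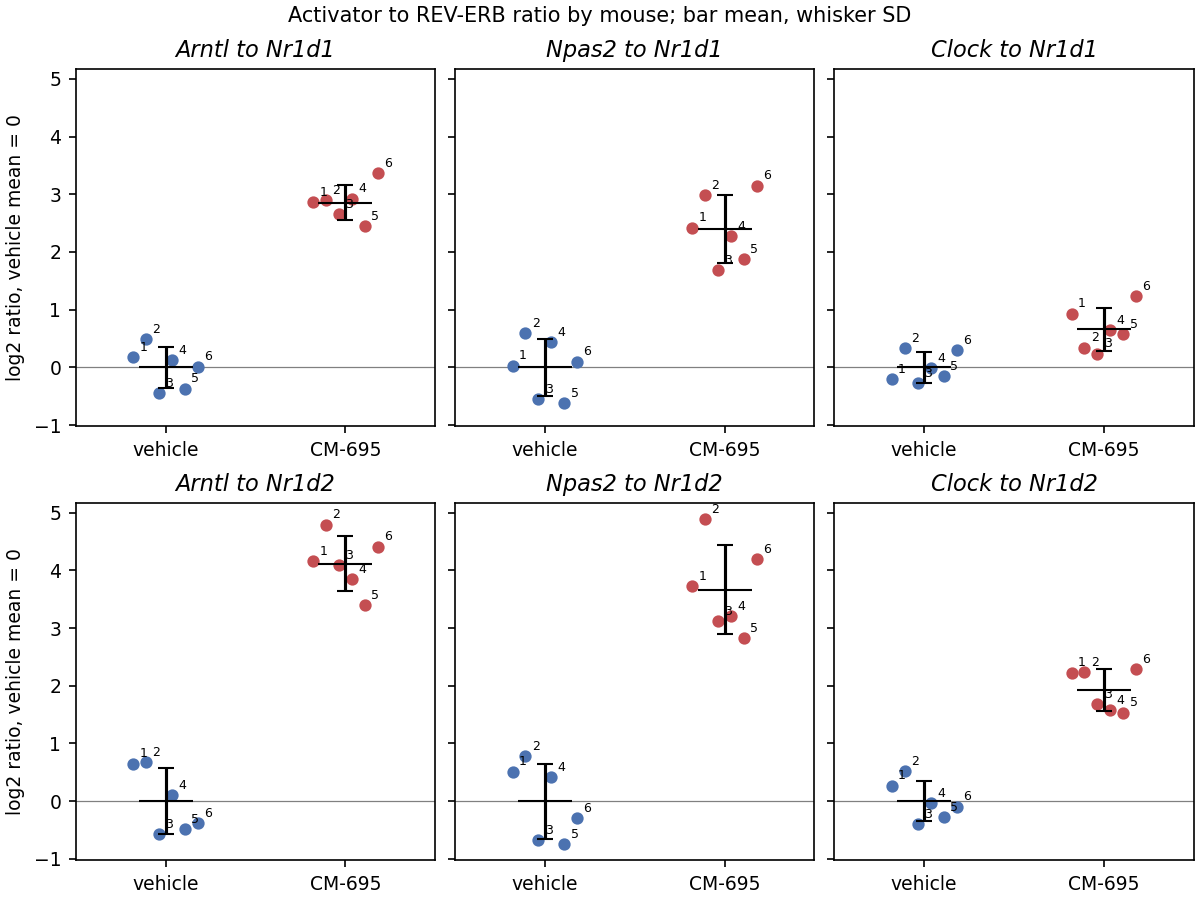
Log2 ratio of each activator gene (columns) to Nr1d1 (top) or Nr1d2 (bottom) in each mouse, relative to the vehicle mean, with group mean and SD (6 mice per group). The groups overlap only for Clock to Nr1d1, where CM-695 mouse 3 at 0.24 lies below the highest vehicle mouse at 0.34.

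The receptor that activates and the receptors that repress at the RORE were also compared. Rora to Nr1d2 ran from -0.33 to 0.29 in vehicle mice (median 0.02) and from 0.96 to 1.91 in CM-695 mice (median 1.34), a shift of 1.41 (SE 0.20) or 2.66-fold. Rora to Nr1d1 shifted by 0.15 (SE 0.19), with treated mice from -0.40 to 0.81 on both sides of the vehicle range of -0.25 to 0.30. Among the activators, Arntl to Clock shifted by 2.19 (SE 0.15) and Npas2 to Clock by 1.74 (SE 0.25). Arntl to Npas2 shifted by 0.46 (SE 0.17), and 4 of 6 treated mice lay above the vehicle range.

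Within each group the genes varied from mouse to mouse, and the 15 pairs were correlated over the 6 mice of each group separately, 30 relations in all. None passed after adjustment over the 30 (exact permutation test over the 720 pairings, smallest adjusted p = 0.403 for Pearson's r and 0.617 for Spearman's rho), and 3 had an unadjusted p under 0.05 for r. Arntl and Npas2 gave r = 0.85 and rho = 0.89 in vehicle mice (exact p = 0.0403 and 0.0333, adjusted p = 0.403 and 0.617) and r = 0.82 and rho = 0.37 in CM-695 mice (exact p = 0.0819 and 0.497, adjusted p = 0.492 and 0.785). Without the 2 mice farthest from the Arntl median, r was 0.57 in vehicle and -0.38 in CM-695 mice, so in the latter the relation rests on those mice.

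Arntl and Nr1d2 gave r = -0.86 and rho = -0.77 in vehicle mice (exact p = 0.0361 and 0.103, adjusted p = 0.403 and 0.617) and r = -0.52 and rho = -0.60 in CM-695 mice (exact p = 0.299 and 0.242, adjusted p = 0.764 and 0.762). Without the 2 farthest mice r was -0.90 and 0.31. Npas2 and Rora gave r = 0.86 and rho = 0.83 in CM-695 mice (exact p = 0.0194 and 0.0583, adjusted p = 0.403 and 0.617; r = 0.63 without the 2 farthest) and r = -0.08 and rho = 0.09 in vehicle mice (exact p = 0.912 and 0.919, adjusted p = 0.96 and 1). Nr1d1 and Nr1d2 gave r = 0.32 and 0.36 in vehicle and CM-695 mice, and rho = 0.43 and 0.26 (exact p = 0.535 and 0.474 for r, 0.419 and 0.658 for rho, adjusted p from 0.764 to 0.926).

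**Figure D4:**
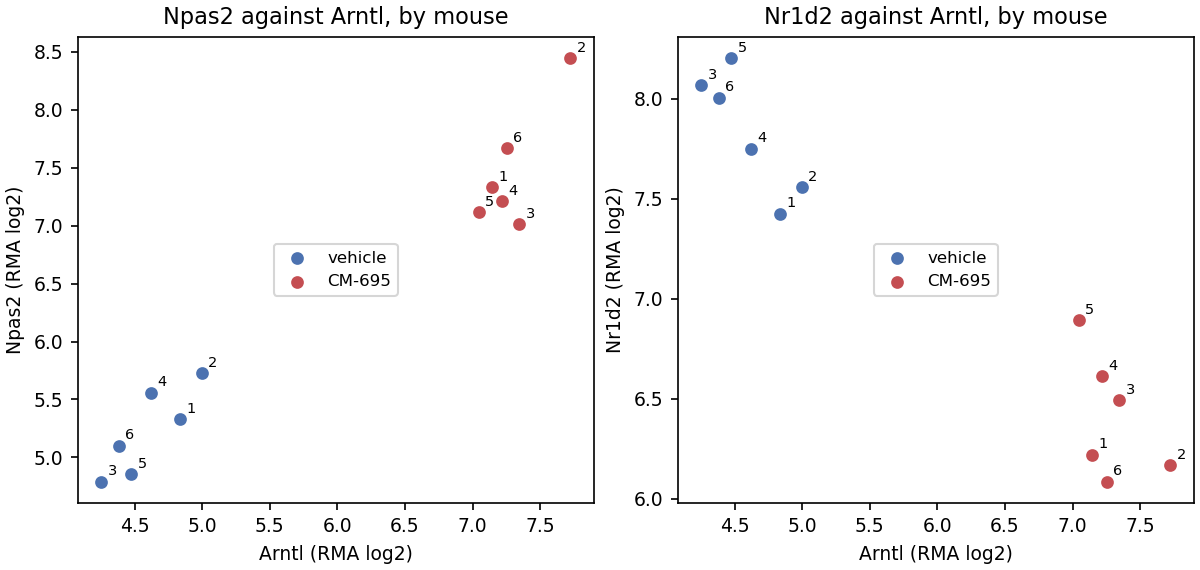
Npas2 (left) and Nr1d2 (right) against Arntl in each mouse, all as RMA log2 expression, with mice numbered within group. Besides the gap between groups, vehicle mice with more Arntl had more Npas2 (r = 0.85) and less Nr1d2 (r = -0.86), neither past adjustment.

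The genes whose values were most like each member were ranked by Pearson's r over all 12 mice, as a description that includes the group difference. Closest to Arntl were Npas2 (r = 0.97), the glypican gene Gpc4 (r = 0.92) and Dtx4, a Notch pathway ubiquitin ligase gene (r = 0.92). With the group means subtracted these became 0.81, 0.03 and -0.11, so Gpc4 and Dtx4 resembled Arntl through the group difference. Closest to Npas2 after Arntl were Rasl11a (r = 0.94) and the RNA-binding protein gene Pcbp1 (r = 0.92). Closest to Nr1d2 were the clock output gene Dbp (r = 0.95), the cell cycle kinase gene Wee1 (r = 0.95) and the complement gene C7 (r = 0.94), with 0.57, 0.67 and 0.88 after subtraction.

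The genes closest to Clock were Crybg3 (r = 0.93), Nlrx1 (r = 0.90) and Tmem229a (r = 0.90). Those closest to Nr1d1 were Zfp78, Map2k4 and Xxylt1 (r = 0.86, 0.85 and 0.85), and to Rora Sncaip, Wdr35 and Ccn5 (r = 0.93, 0.91 and 0.89). None of these last 9 genes was itself called, and for Nr1d1 and Rora the group means hardly entered, since r after subtraction was 0.84 to 0.85 and 0.89 to 0.93. No test was made of these rankings, which pick the highest of many genes over 12 mice and leave out predicted genes, clone names and small RNAs.

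Most measured targets of the activators fell. Of 13 measured genes that BMAL1 partners switch on through E-boxes, 8 were called lower (0.144% of all genes were). Called higher were 0, and 5 were not called. The median difference of the 13 was -1.05 log2 against 0.02 over all genes. This list was chosen with earlier results of these data known, so the count describes it and tests nothing. It holds 14 genes, of which Per2 was not among the genes measured. The count was 5 of 13 with the heart muscle marker mean as a covariate and 6 with the replicate number as a block. The output factor genes Dbp and Tef fell by 2.68 (SE 0.16) and by 1.59 (SE 0.12). Among the repressor genes, Per3 fell by 1.86 (SE 0.14), Per1 fell by 0.99 (SE 0.13), Ciart fell by 1.59 (SE 0.15) and Bhlhe41 fell by 1.57 (SE 0.16). The deubiquitinase gene Usp2 fell by 1.69 (SE 0.20) and Wee1 by 1.05 (SE 0.14). Adjusted p for the 8 ran from 5.15e-06 for Dbp to 0.00767 for Wee1, and in all 8 every treated mouse lay below every vehicle mouse. Nr1d1, itself an E-box target, differed by -0.16.

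**Figure D5:**
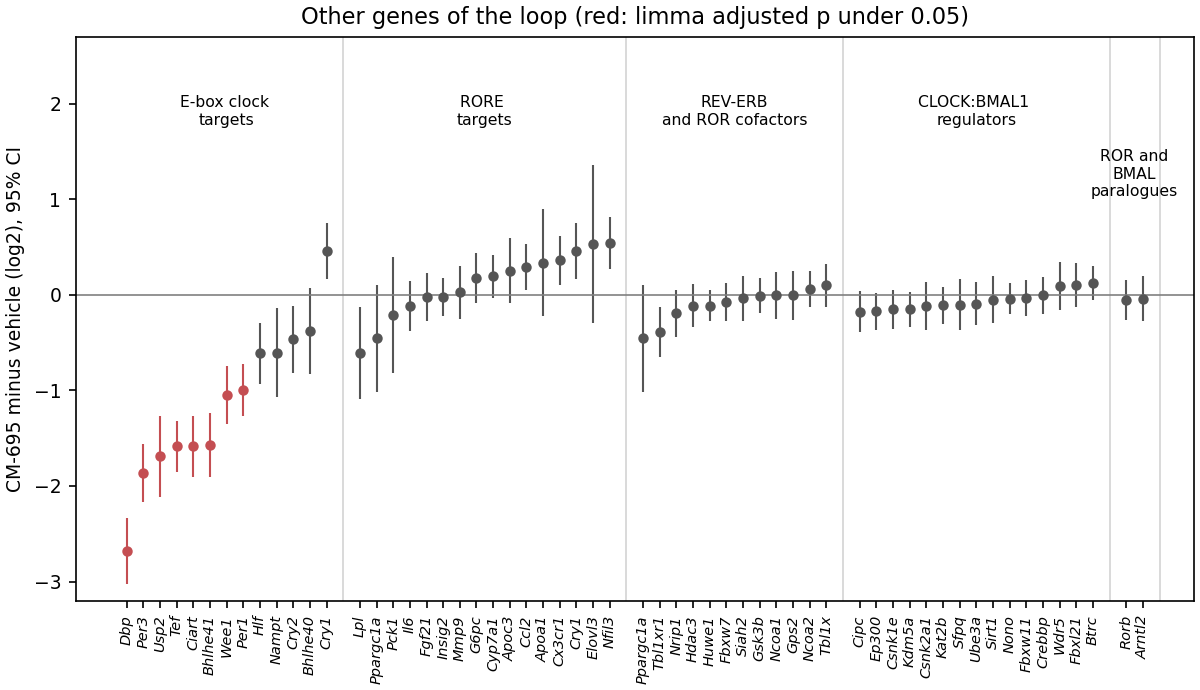
CM-695 minus vehicle difference in log2 expression with its 95% confidence interval for the measured genes of 5 lists (Cry1 and Ppargc1a stand in 2 lists each); red marks a limma adjusted p under 0.05. The 8 red genes are all in the E-box list, from Dbp at -2.68 to Per1 at -0.99.

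Of 16 measured genes with a known RORE, 0 were called, where 0.0225% of all genes were called higher and 0.144% lower. Arntl, described above, is not counted in this list. In vehicle mice 12 of the 16 genes averaged above the median of all values, 4.72. Their median was 0.18 log2, with 10 of 16 above 0, against 55.3% of all genes. By the unadjusted limma p, 4 of them were higher at under 0.05 (4.96% of all genes) and 1 was lower (4.14%). Nfil3, the D-box repressor gene, differed by 0.54 (SE 0.12, adjusted p = 0.137), and all 6 CM-695 mice exceeded the vehicle range. The cryptochrome gene Cry1 differed by 0.46 (SE 0.14, adjusted p = 0.294), with 2 of 6 above. The fractalkine receptor gene Cx3cr1 differed by 0.36 (SE 0.12, adjusted p = 0.347), with 5 of 6 above. Cry1 also carries E-boxes and was the 1 E-box gene above 0.

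Genes of the machinery around these factors were not called, where 0.0225% of all genes were called higher and 0.144% lower. Of 12 measured cofactors and degradation factors of REV-ERB and ROR, 0 passed, with a median of -0.06. At an unadjusted limma p under 0.05, 1 was lower (4.14% of all genes). It was Tbl1xr1, a subunit of the NCoR corepressor complex, at -0.39 (SE 0.12, adjusted p = 0.325). The coactivator gene Ppargc1a differed by -0.46 (SE 0.26) and the corepressor gene Nrip1 by -0.19 (SE 0.11). Of 15 measured regulators of CLOCK and BMAL1, 0 passed and 0 had an unadjusted limma p under 0.05, with a median of -0.09. The acetyltransferase gene Ep300 differed by -0.17 (SE 0.089), Cipc, whose product inhibits CLOCK, by -0.18 (SE 0.10), and the demethylase gene Kdm5a by -0.15 (SE 0.083).

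Heart muscle markers were lower in several CM-695 mice. Of 11 markers 0 were called, 8 were lower at an unadjusted limma p under 0.05 (4.14% of all genes), and the median difference was -1.60 log2. The mean of the list per mouse ran from 6.90 to 8.68 in vehicle and from 5.95 to 7.90 in CM-695 mice, with 3 of 6 treated mice below the vehicle range. In vehicle mice 10 of the 11 averaged above the median of all values, 4.72; the exception was Myl2, the ventricular light chain gene, at 4.53. With this mean as a covariate the difference was 2.83 (SE 0.19, adjusted p = 0.00016) for Arntl, 2.26 (SE 0.34, adjusted p = 0.0501) for Npas2, -1.38 (SE 0.23, adjusted p = 0.0968) for Nr1d2 and 0.57 (SE 0.13, adjusted p = 0.295) for Clock. Without it these differences were 2.69, 2.24, -1.42 and 0.50, with smaller standard errors. Nr1d1 differed by -0.07 with the covariate and -0.16 without it, and Rora by -0.05 and -0.01. The list mean averaged 8.02 in vehicle and 6.88 in CM-695 mice, so the covariate partly follows the group. The part of heart muscle content in the results was not tested.

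Of 10 fibroblast markers 10 lay below 0, while 55.3% of all genes lay above 0. The 10 had a median of -0.44 log2, with 0 called and 5 lower at an unadjusted limma p under 0.05 (4.14% of all genes). Their mean per mouse ran from 8.60 to 9.40 in vehicle and from 8.35 to 8.81 in CM-695 mice, and their part in the result was not tested. Smooth muscle means ran from 8.94 to 9.83 and from 8.46 to 10.4, endothelial means from 7.45 to 7.81 and from 7.48 to 7.82, and adipocyte means from 9.55 to 9.99 and from 9.25 to 10.2. With the adipocyte mean as a covariate Arntl differed by 2.76, Npas2 by 2.42 and Nr1d2 by -1.48 (adjusted p = 5.41e-06, 5.86e-05 and 0.00251). With the smooth muscle mean as a covariate, an alternative chosen after seeing the data, Arntl differed by 2.75, Npas2 by 2.39 and Nr1d2 by -1.47, all still called (adjusted p = 4.18e-06, 5.61e-05 and 0.00314).

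Of the platelet, leukocyte, nerve and glial, skeletal muscle and erythroid markers 0 were called. Of 7 platelet markers 4 were higher at an unadjusted limma p under 0.05 (4.96% of all genes), with a median of 0.25 log2. Platelet list means ran from 5.02 to 5.41 in vehicle and from 5.22 to 5.62 in CM-695 mice. The platelet tubulin gene Tubb1 differed by 0.25 (SE 0.091, adjusted p = 0.424). Every treated mouse lay above every vehicle mouse (0.442% of all genes), but by a gap of 0.0031 log2 units only. Of 9 leukocyte markers 8 lay above 0 (55.3% of all genes), 1 at an unadjusted limma p under 0.05 (4.96%), with a median of 0.25. Leukocyte list means ran from 5.32 to 5.87 and from 5.36 to 6.06. The part of platelets and leukocytes in the results was not tested. Nerve and glial means ran from 4.74 to 5.59 and from 4.99 to 6.36, with 5 of 6 markers above 0, and skeletal muscle means from 4.61 to 4.93 and from 4.51 to 4.85. The single erythroid marker measured differed by -0.04.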

How the data were processed

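RNA of 12 aortas, 6 per group, was measured on 1 array each. The authors deposited log2 expression values made with RMA, per the submitters' processing notes (which software ran it is not stated in what was used here). Of 41345 probe sets, 23521 named 1 gene in the platform annotation, and the 6 genes of interest had 1 such probe set each. For other genes the probe set with the highest mean over the 12 arrays was used. Groups and mouse numbers came from the sample titles. CM-695 was compared with vehicle with limma (version 3.58.1, R 4.3.3) in a two-sided lmFit and eBayes fit with no covariate and no filter, adjusted by Benjamini-Hochberg over all probe sets, and the procedure was tested on simulated data. Each array came from a separate mouse, so the spread holds biological and technical variation. The members and gene lists were chosen with earlier results of these data known. The text names the 6 members, the called genes of each list or otherwise up to 3 with the smallest p, the 3 genes most like each member, and defining cell type markers; Thra was chosen after its values were seen. Lists of 10 cell types served as a check of tissue content.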

Additional observations from a re-analysis of the deposited data

Results flagged for a closer look

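In 40 groups of 6 mice (the 6 members, their 6 activator to REV-ERB ratios and the 8 called E-box genes, each in both treatments), the extreme mouse was tested against the rest by Dixon's ratio at its 95% critical value, which chance exceeds in about 1 of 20 groups. It was exceeded in 2 groups. Rora in vehicle mouse 1 measured 6.52, below the other 5 vehicle mice. Per3 in vehicle mouse 2 measured 7.08, below the other 5; this was the vehicle mouse with the highest Arntl and Npas2.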

How the results depend on the processing

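Arntl stayed called in all analyses by limma (difference 2.61 to 2.83), and Npas2 and Nr1d2 in all but the one with the cardiac score (2.26 and -1.38). Nothing in the titles pairs the mice: deviations of same-numbered mice from their group means correlated at -0.10 to 0.10, and most mice matched another number better. With the replicate number as a block Arntl had adjusted p = 0.000359, Npas2 0.00312 and Nr1d2 0.0111, and 15 probe sets passed in place of 64. The exact permutation test, adjusted over all probe sets, called 0 probe sets and 0 E-box genes (counts added after seeing the data), and left 2.69 for Arntl, 2.24 for Npas2 and -1.42 for Nr1d2 uncalled (adjusted p = 0.237), since its smallest p is 0.00216; by unadjusted limma p under 0.05, 3774 probe sets differed. Clock (0.50) was called without dim probe sets. Rora, uncalled throughout, changed sign with repeated quantile normalization (0.0029), the adipocyte score (0.0441) and the smooth muscle score (0.0295), and ran from -0.0646 to 0.0449 with 1 mouse left out. Probe sets past the threshold numbered 102 without dim probe sets, 13, 108 and 117 with the cardiac, adipocyte and smooth muscle scores, and 22 to 98 with 1 mouse left out (54 when the one dropped was vehicle mouse 5, 98 when it was CM-695 mouse 2, and 22 to 38 for each of the other 10). The E-box count was 5 with the cardiac score and 8 without any 1 mouse. The 6 ratios were rerun with quantile normalization repeated and with 1 mouse left out, but with no covariate and no block. Leaving out 1 of 6 mice moves a group mean by less than its SD whatever the values, so these reruns are a weak check. With 1 mouse left out Arntl to Nr1d2 ran from 3.98 to 4.26 and Clock to Nr1d1 from 0.55 to 0.75.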
